A study of Mus musculus with 16 samples.

Results

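Tissue factor (gene F3), the membrane receptor that starts blood clotting, was examined together with 8 other genes of coagulation and its control that macrophages can express: F7, F10, F13a1, Thbd, Procr, Tfpi, Pros1 and F2r. The 9 genes were found by symbol among the 56748 genes of the count table, and each matched 1 row. Clotting in tissue begins when tissue factor on a cell surface binds factor VII and its active form, and the pair activates factor X, which leads to thrombin. Thrombin makes fibrin and signals to cells through the receptor encoded by F2r, and factor XIII then cross-links the fibrin. Several proteins hold the cascade back: tissue factor pathway inhibitor blocks its first step, thrombomodulin and the endothelial protein C receptor turn thrombin towards activation of protein C, and protein S assists activated protein C. Monocytes and macrophages are well known to make tissue factor when they meet bacterial products.

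The cells were wild type bone marrow-derived macrophages of 4 male C57BL6 mice, grown in medium with supernatant of L929 cells, and RNA was sequenced in 16 libraries. Each mouse gave 1 library to each of 4 groups. The DMSO group received the vehicle, and the SR9009 group received 10 µM SR9009 for 16 hours. The SR9009 and LPS group received the same SR9009 treatment and then LPS at 100 ng/mL, which acted for 6 hours. The LPS group received LPS at the same dose and time. Its labels mention no other agent, so whether these cells had DMSO overnight is not known, and a difference in vehicle cannot be told apart from the effect in comparisons with that group. SR9009 is a synthetic agonist of REV-ERBα and REV-ERBβ, repressors of the circadian clock, and lipopolysaccharide (LPS) is a bacterial cell wall component sensed by Toll-like receptor 4. In these bulk samples, fewer cells of a type and less RNA per cell cannot be told apart.

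Total counts were 12616442 to 24214863 per library. The SR9009 library of mouse 1 had the lowest total and 13298 genes with a count, against 16419 to 18947 in the others. Some results that depend on it are given with and without it, and others only with it. Of 6 macrophage markers, Csf1r, Adgre1 and Cd68 stood at 426 to 5823 CPM (counts scaled to library size with TMM factors) in every library, while Lyz2 stood at only 9.22 to 54.7 CPM. With LPS, Fcgr1 rose from 280 ± 103 to 1932 ± 289 CPM (log2 2.79, edgeR adjusted p = 1.09e-05), Adgre1 rose (log2 0.59, adjusted p = 0.0204) and Csf1r fell (log2 −1.09, adjusted p = 0.00407), and with SR9009 alone Fcgr1 fell to 83.9 ± 33.7 CPM (log2 −1.74, adjusted p = 0.0204). The other 3 did not pass in either comparison. Of 5 hepatocyte markers, 4 had no count in any library and Alb had at most 1 count per group. The summed CPM was at most 1.5 for 5 fibroblast markers, 0.986 for 5 neutrophil markers and 0.535 for 4 B cell markers. It reached 9.73 for 4 T cell markers and 8.24 for 5 dendritic cell markers, of which Ccr7 rose with LPS (log2 2.77, SE 0.92, edgeR adjusted p = 0.0242). Nearly all of the T cell sum was Cd4 (6.83 ± 2.31 CPM in DMSO), while Cd3e, Cd3d and Cd8a had at most 5 counts per group.

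The 9 genes covered a wide range of levels. Compared per gene length, F13a1 led in DMSO with 11.6 ± 10.5 FPKM (fragments per kilobase, scaled to library size; SD, n = 4) and Pros1 followed with 11.1 ± 0.837 FPKM, and these overlapped. Tfpi (2.43 ± 0.180), Thbd (2.32 ± 0.609) and Procr (1.66 ± 0.343) formed a middle group in which each overlapped the next. F10 (0.911 ± 0.781) overlapped Procr and lay above F7 (0.143 ± 0.0533) in every library. F2r (0.0201 ± 0.0210) and F3 (0.00755 ± 0.00891) were lowest and overlapped. With LPS the order changed: Procr was first with 35.8 ± 6.41 FPKM, above all others in every library, and F10 was next with 10.9 ± 1.83 FPKM, overlapping F13a1 (8.51 ± 10.1), which overlapped Pros1 (7.22 ± 0.668). F3 remained last at 0.109 ± 0.0595 FPKM and overlapped F2r (0.221 ± 0.234), which overlapped F7 (0.490 ± 0.208).

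**Figure D1:**
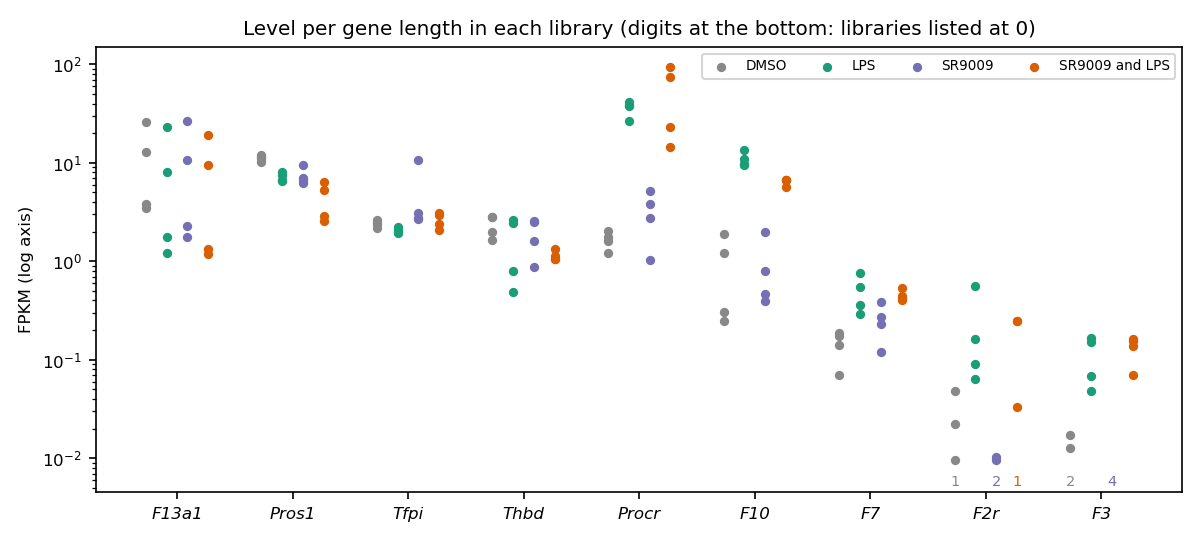
Level per gene length (FPKM, log axis) of the 9 coagulation genes in each of the 16 libraries, coloured by group; digits along the bottom count libraries listed at 0. Procr rises from 1.66 FPKM on average in DMSO to 35.8 with LPS and F10 from 0.911 to 10.9. The mean of F3 is the lowest in both groups, with libraries that overlap those of F2r.

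F3 (ENSMUSG00000028128, GRCm39 chromosome 3, 121517186 to 121528697, plus strand) was close to undetected. It had 40 counts over all 16 libraries and did not pass the filter on low counts, so it was left out of the test across genes. In DMSO the libraries of mice 1 to 4 held 1, 0, 1 and 0 counts, and with LPS they held 2, 5, 2 and 6. The SR9009 libraries held none, which allows up to 0.0312 CPM over the group (3 counts), and those with SR9009 and LPS held 3, 7, 7 and 6. Every library with LPS lay above every library without it, in both pairs of groups. Scaled to library size, the LPS group had 14.7 times the F3 counts of the DMSO group (15 counts against 2, exact 95% interval 3.41 to 132). After SR9009, with 0 counts against 23, F3 was 10.8-fold higher with LPS when the group at 0 is set to 3 counts. The exact 95% lower limit of the ratio was 8.07. Each comparison gave p = 0.0286 in an exact two-sided permutation test over the 8 libraries without regard to mouse. That is the smallest p this unpaired test allows, and a permutation that keeps the pairs by mouse was not made. Adjusted over the 8 such tests made for F3 and F2r it was 0.0762 and did not pass. With that smallest p, the LPS comparisons of F3 and F2r could not pass this adjustment by themselves, so no conclusion is drawn from it. With no filter on low counts, where 26596 genes were tested, edgeR gave adjusted p = 0.0125 and 0.00104. Intervals and bounds cover counting error only. With LPS, F3 stood at 0.275 ± 0.152 CPM, and with SR9009 and LPS at 0.336 ± 0.109 CPM (ratio of counts 1.24, interval 0.620 to 2.56, exact permutation p = 0.571), so a difference was not detectable at this depth.

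The sequence before the start of F3 is shown with those of Procr and F2r because these members were higher in every LPS library than in any DMSO library and share a motif. The motif TGANTCA, the binding sequence of AP-1 (dimers of Fos and Jun proteins), was found in the promoters of 3 of the 8 members with an entry in the RefSeq promoter table (GRCm38.p6, 250 bases before to 50 after the start, both strands). It occurs in 7.81% of the 32851 promoters of that table. That is a share of promoters and not of genes: F13a1 and Tfpi had 2 entries each, and the other members 1. The lines below give 120 bases that begin 230 bases before the start, read 5′ to 3′ on the gene's strand, with the matches in capitals; F3 is at chr3:121723307-121723426 (plus strand), Procr at chr2:155750987-155751106 (plus strand) and F2r at chr13:95618577-95618696 (minus strand) of GRCm38.p6.
F3: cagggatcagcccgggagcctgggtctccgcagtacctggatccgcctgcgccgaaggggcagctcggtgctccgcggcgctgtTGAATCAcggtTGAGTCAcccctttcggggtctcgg
Procr: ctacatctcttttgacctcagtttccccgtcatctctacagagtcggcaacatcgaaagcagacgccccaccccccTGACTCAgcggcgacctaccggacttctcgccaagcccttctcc
F2r: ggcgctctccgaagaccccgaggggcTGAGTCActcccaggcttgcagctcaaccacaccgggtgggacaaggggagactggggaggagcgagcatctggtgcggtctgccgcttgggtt

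F3 held 2 matches, which begin 146 and 135 bases before the start, Procr 1 at 154 and F2r 1 at 204. F10 and F7, which rose with LPS as well, held no match in this window, and neither did F13a1, Pros1 and Tfpi. Thbd had no entry. Other motifs were searched in the same way. The C/EBP motif TTGCNNAA (10.8% of promoters) was found in Procr, and the EGR motif GCGNGGGCG (5.55%) in Pros1, where it overlaps a GC box. The E-box CACGTG (7.15%), which clock proteins bind, was found in 1 of the 2 entries of Tfpi, just after the start. GC boxes, GGGCGG (35.7%), were found in F3, F2r, Pros1 and Tfpi. TATAAA (13.6%) was found only on the strand opposite to the gene, read there as TTTATA on the gene's strand. In F3 it lay after the start, at base 44, and in 1 entry of Tfpi it began 127 bases before the start. No member held the D-box TTANGTAA (2.32%), the NF-κB consensus (4.51%) or the consensus of ROR and REV-ERB proteins (0.384%). Only exact matches to these patterns were counted, so a binding site that departs from them, in F3 or another member, would be missed. A match describes letters in this window and no binding was measured.

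Of the 7 members tested across genes, 3 were called higher and 1 lower with LPS in cells without SR9009 (edgeR, Benjamini-Hochberg adjusted p under 0.05 over 13438 genes). This count, and that of groups without overlap below, include F7, which passed the filter mainly through libraries with LPS. The shares over all tested genes were 19.4% higher and 20.4% lower (2611 and 2741 genes, or 2126 and 3459 with upper-quartile scaling), and 26.8% and 30.6% with the SR9009 library of mouse 1 left out of the fit. The members' median log2 fold change was −0.28 and that of all tested genes −0.08. After SR9009, LPS left 2 members higher and 1 lower, with 14.5% and 15.8% of all tested genes called (22.7% and 20.8% without that library). Leaving it out changed neither count of members. The CPM of both groups did not overlap for 4 of 7 members without SR9009 (57.6% of all tested genes) and for 4 of 7 after SR9009 (27.3%). These 2 comparisons share no libraries, although they share the mice.

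**Figure D2:**
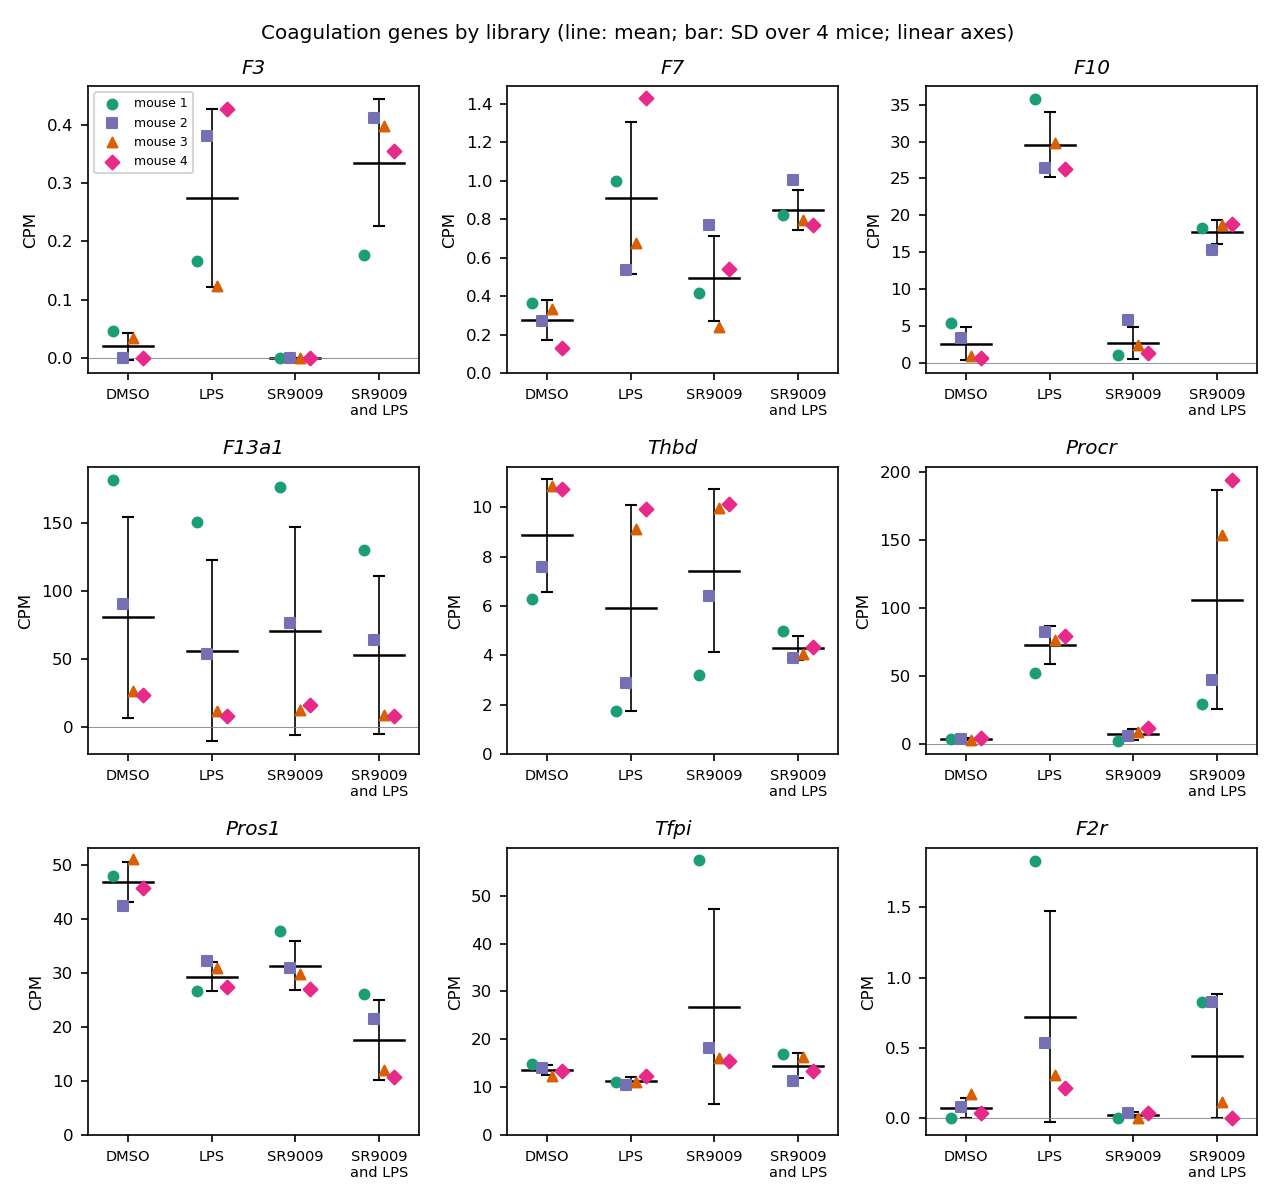
CPM of each of the 9 genes in every library (linear axes; points are mice, the line is the mean and the bar the SD over 4 libraries). Procr and F10 lie above all libraries without LPS in every library with it, Pros1 is lowest with SR9009 and LPS, and F13a1 is highest in mouse 1 in every group.

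F10 and F7, the genes of factor X and factor VII, are neighbours on chromosome 8 of GRCm39. F7 (ENSMUSG00000031443) lies at 13076034 to 13085809 and F10 (ENSMUSG00000031444) at 13087308 to 13106676, both on the plus strand with 1498 bases between them. F10 stood at 5.32, 3.38, 0.869 and 0.690 CPM in the DMSO libraries of mice 1 to 4, and at 35.8, 26.4, 29.8 and 26.3 CPM with LPS. Mice 1 and 2 were higher than mice 3 and 4 before LPS, all 4 were close together after it, and the groups did not overlap. F10 rose by log2 3.54 (SE 0.61, adjusted p = 0.000263), and within mice the rise was 6.72, 7.81, 34.3 and 38.0-fold. After SR9009 it went from 1.05, 5.74, 2.34 and 1.35 CPM to 18.3, 15.3, 18.6 and 18.8 CPM with LPS (log2 2.74, SE 0.59, adjusted p = 0.00226). The rise of F10 passed in all 31 alternative settings in both comparisons.

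F7 rested on few counts, 4 to 21 per library, with at most 10 in DMSO. It passed the filter on low counts mainly through libraries with LPS, which favours a call of a rise. It stood at 0.364, 0.269, 0.334 and 0.132 CPM in DMSO and at 0.998, 0.533, 0.678 and 1.43 CPM with LPS, so every LPS library was higher than every DMSO library. F7 rose by log2 1.72 (SE 0.45, adjusted p = 0.00656). With no filter on low counts the rise was log2 1.66 (edgeR adjusted p = 0.0314). The call in the main fit was lost without mouse 4 (log2 1.17, adjusted p = 0.135), whose LPS library was the highest. After SR9009, F7 was 0.418, 0.767, 0.242 and 0.542 CPM without LPS and 0.823, 1.00, 0.798 and 0.770 with it. These groups also did not overlap, but the difference did not pass (log2 0.76, SE 0.43, adjusted p = 0.200). Per gene length, F10 was at 6.35 times the level of F7 in DMSO and at 22.2 times with LPS. Counts near the shared border of both genes would depend on the annotation, whose release is not given in the sources used here.

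F13a1 (ENSMUSG00000039109, GRCm39 chromosome 13, 37051152 to 37234220, minus strand) encodes the catalytic subunit of factor XIII, which monocytes, macrophages and megakaryocytes make. It varied more between mice than between treatments. In DMSO it stood at 181, 90.0, 26.9 and 24.0 CPM in mice 1 to 4, and with LPS at 150.3, 53.9, 11.9 and 8.28 CPM. With SR9009 the values were 176, 76.8, 12.7 and 16.2 CPM, and with SR9009 and LPS 130.0, 64.1, 9.12 and 8.12 CPM. Mouse 1 was highest in all 4 groups, mouse 2 next, and mice 3 and 4 lowest, up to 18.2-fold apart within a group. Within each mouse F13a1 was lower with LPS, by log2 −0.27, −0.74, −1.18 and −1.54. Without the mouse in the model the fall was not called (log2 −0.52, SE 1.07, adjusted p = 0.737). With mouse as a replicate block it was (log2 −0.95, SE 0.23, edgeR adjusted p = 0.00447). After SR9009 it was lower with LPS in 4 of 4 mice, and passed neither way (adjusted p = 0.817, and 0.0867 with the block). Platelet markers are given here because platelets carry factor XIII: Pf4 stood at 16.98 to 41.5 CPM in DMSO and 29.2 to 68.5 CPM with LPS (log2 0.74, adjusted p = 0.153). Gp1ba, at 0.731 ± 0.228 CPM in DMSO, fell with LPS (log2 −2.95, edgeR adjusted p = 0.00508) and with LPS after SR9009 (log2 −2.85, adjusted p = 0.00611), and Itga2b did not pass (log2 −1.40 with LPS, adjusted p = 0.144). Ppbp had 25 to 28 counts per group and Gp9 at most 3. The part of such cells in the F13a1 values was not tested.

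Procr (ENSMUSG00000027611, GRCm39 chromosome 2, 155593037 to 155597391, plus strand) encodes the endothelial protein C receptor, which presents protein C to the thrombin-thrombomodulin complex. It had the largest rise with LPS among the 7 tested members. It stood at 3.41, 3.69, 2.54 and 4.21 CPM in DMSO and at 52.2, 82.2, 76.6 and 79.3 CPM with LPS. The groups lay far apart and the 4 mice were alike within each (log2 4.39, SE 0.60, adjusted p = 3.07e-05). With SR9009 it stood at 2.02, 5.99, 8.42 and 11.2 CPM, and with SR9009 and LPS at 29.0, 47.1, 154 and 194 CPM (log2 3.93, SE 0.58, adjusted p = 9.76e-05). In that last group mice 3 and 4 were several times higher than mice 1 and 2, and all 4 were above every library without LPS. Both calls passed in all 31 alternative settings.

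Some endothelial markers moved with Procr. The summed CPM of 7 endothelial markers was 7.35 to 18.4 in DMSO and 102 to 197 with LPS, and 3.34 to 12.3 with SR9009 and 91.7 to 190 with SR9009 and LPS. Of the 3 markers that passed the filter, all 3 rose in both comparisons: Kdr from 10.1 ± 4.82 to 138 ± 41.2 CPM with LPS, Pecam1 from 0.474 ± 0.313 to 7.83 ± 2.42 and Cdh5 from 0.453 ± 0.121 to 4.42 ± 0.520. Pecam1 and Cdh5 passed the filter only through libraries with LPS, so their rise was favoured by the filter. Kdr, at 6.48 CPM or more in DMSO, did not depend on those libraries to be tested. The other 4 defining markers, Tek, Tie1, Emcn and Cldn5, had 0 to 10 counts per group. Vwf, another endothelial gene, is listed below with the clotting factors and fell with LPS (log2 −2.32) and with LPS after SR9009 (−1.88). With SR9009 and LPS against LPS, Pecam1 and Cdh5 were lower without passing (log2 −1.78 and −1.96, edgeR adjusted p = 0.110 and 0.0665). Kdr (−0.18) and Procr (0.55) did not pass either. The part of endothelial cells in the Procr result was not tested.

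Thbd (ENSMUSG00000074743, GRCm39 chromosome 2, 148246386 to 148250108, minus strand) encodes thrombomodulin, the thrombin receptor that starts protein C activation. It stood at 6.28, 7.58, 10.9 and 10.8 CPM in DMSO and at 1.75, 2.90, 9.12 and 9.92 CPM with LPS. It was lower with LPS in 4 of 4 mice, by log2 −1.85 and −1.39 in mice 1 and 2 and by −0.25 and −0.12 in mice 3 and 4, and the groups overlapped. The difference did not pass (log2 −0.58, SE 0.47, adjusted p = 0.353). After SR9009 it was 3.21, 6.39, 9.99 and 10.1 CPM without LPS and 4.99, 3.89, 4.05 and 4.33 with it, lower in 3 of 4 mice (log2 −0.79, SE 0.47, adjusted p = 0.227). That difference passed without mouse 1 (log2 −1.06, adjusted p = 0.0392). Thbd and Procr, whose products act together on protein C, had log2 values of opposite sign with LPS, and the one for Thbd did not pass.

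Pros1 (ENSMUSG00000022912, GRCm39 chromosome 16, 62674670 to 62749709, plus strand) encodes protein S, a cofactor of activated protein C and of tissue factor pathway inhibitor that is also a ligand of TAM receptors. It stood at 48.1, 42.5, 51.2 and 45.8 CPM in DMSO and at 26.8, 32.3, 31.1 and 27.4 CPM with LPS. Every LPS library was lower than every DMSO library, and the fall of Pros1 was called (log2 −0.67, SE 0.25, adjusted p = 0.0403). The direction was the same in all 31 alternative settings, but 17 kept the call. It was lost with RLE scaling (−0.62, adjusted p = 0.0686), with no filter on low counts, with log2(FPKM + 0.1), without mouse 2, 3 or 4, and without any single library of either group (adjusted p up to 0.142 over all of these). After SR9009 it stood at 37.8, 31.0, 29.8 and 26.99 CPM without LPS and at 26.1, 21.6, 12.0 and 10.7 CPM with it. Again no library overlapped (−0.84, SE 0.25, adjusted p = 0.0185), and 24 of 31 settings kept this call. It was lost without mouse 2, 3 or 4, without the SR9009 and LPS library of mouse 3 or 4, with no filter and in a fit of both groups alone (adjusted p 0.0571 to 0.133).

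Tfpi (ENSMUSG00000027082, GRCm39 chromosome 2, 84263199 to 84307119, minus strand) encodes tissue factor pathway inhibitor. It varied little between mice in DMSO and with LPS: 14.9, 14.0, 12.4 and 13.4 CPM in DMSO, and 11.1, 10.4, 11.0 and 12.4 CPM with LPS. It was lower with LPS in 4 of 4 mice, with groups that barely overlapped, and the difference did not pass (log2 −0.28, SE 0.35, adjusted p = 0.556). With the SR9009 library of mouse 1 left out of the fit, the SE was 0.14 (log2 −0.30, edgeR adjusted p = 0.0896). With SR9009 it stood at 57.4, 18.3, 16.1 and 15.5 CPM, and with SR9009 and LPS at 16.9, 11.3, 16.3 and 13.3 CPM. The value of 57.4 came from the SR9009 library of mouse 1. The LPS difference after SR9009 was log2 −0.89 (SE 0.35, adjusted p = 0.0659) with that library and −0.14 (SE 0.15, adjusted p = 0.495) without it. It passed without the SR9009 library of mouse 2, 3 or 4 (adjusted p as low as 0.0333), and with upper-quartile scaling (log2 −1.04, adjusted p = 0.036), which moves the median of all genes in this comparison from −0.12 to −0.25, and in LPS versus DMSO from −0.08 to −0.28.

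F2r (ENSMUSG00000048376, GRCm39 chromosome 13, 95738311 to 95754995, minus strand) encodes the thrombin receptor PAR1. It too was nearly undetected, with 77 counts in all, and was not tested across genes. The DMSO libraries held 0, 2, 5 and 1 counts and the LPS libraries 22, 7, 5 and 3. In CPM every LPS library lay above every DMSO library, although mouse 3 held 5 counts in both groups. The scaled ratio was 9.04 (37 counts against 8, exact 95% interval 4.15 to 22.5, exact two-sided permutation p = 0.0286, or 0.0762 over the 8 tests), and edgeR with no filter gave adjusted p = 0.0242. After SR9009 the counts were 0, 1, 0 and 1 without LPS and 14, 14, 2 and 0 with it. High values came from mice 1 and 2 alone, and mouse 4 had none with LPS. The ratio was 21.1 (30 counts against 2, interval 5.34 to 182, exact permutation p = 0.143, and adjusted p = 0.0173 with no filter). The other protease-activated receptor genes F2rl1, F2rl2 and F2rl3 had 0 to 9 counts per group.

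**Figure D3:**
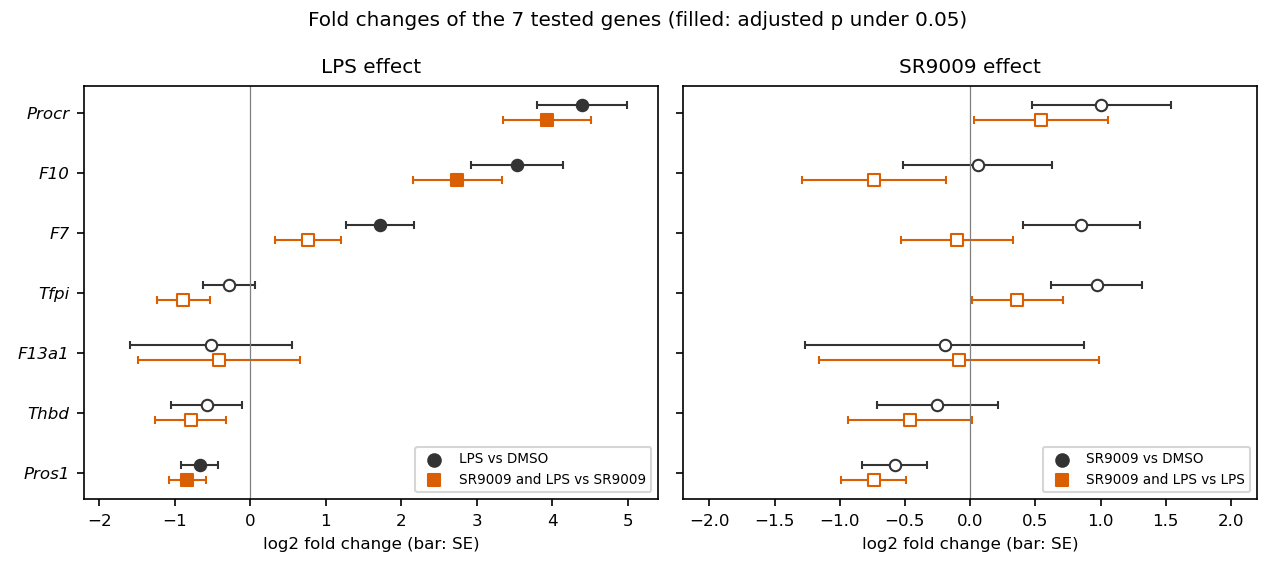
Log2 fold changes (bars are SE) of the 7 tested genes for LPS, left, and for SR9009, right; filled symbols have an adjusted p under 0.05. Procr, F10, F7 and Pros1 are filled for LPS versus DMSO, and Procr, F10 and Pros1 for SR9009 and LPS versus SR9009; no symbol is filled for SR9009.

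SR9009 was compared with DMSO to see what the agonist did to these genes on its own. No member was called by edgeR (0.878% of all tested genes were), by DESeq2 (2.46%), by limma-voom (0.752%) or with the replicate block (1.47%). None was called when the SR9009 library of mouse 1 was left out (1.77% of genes) or the DMSO library of mouse 1 (41 genes, 0.300%). At an unadjusted p under 0.05 there were 1 higher, Tfpi, and 1 lower, Pros1, with 7.96% of all tested genes higher and 3.72% lower at that threshold. The groups did not overlap for the same 2 of 7 members (9.54% of all tested genes). Pros1 was lower with SR9009 in 4 of 4 mice (46.9 ± 3.66 CPM in DMSO and 31.4 ± 4.60 with SR9009). The log2 difference was −0.58 (SE 0.25, edgeR adjusted p = 0.397), and −0.73 with the SR9009 library of mouse 1 left out (adjusted p = 0.231). Tfpi was higher in 4 of 4 mice (13.7 ± 1.04 to 26.8 ± 20.4 CPM, log2 0.97, SE 0.35, adjusted p = 0.300), but only 0.24 without that library (SE 0.15, adjusted p = 0.733).

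The remaining members had intervals on both sides of 0 for SR9009 alone. Procr was higher in 3 of 4 mice (log2 1.01, 95% interval −0.04 to 2.05, adjusted p = 0.474) and lower in mouse 1. F7 was higher in 3 of 4 mice (log2 0.85, interval −0.03 to 1.74). F10 had close means (2.57 ± 2.21 and 2.62 ± 2.15 CPM): mouse 1 had 5.32 CPM in DMSO and 1.05 with SR9009, while the other 3 mice were higher with SR9009. Its log2 value was 0.06, and it was 0.28 without the SR9009 library of mouse 1. F13a1 was lower in 4 of 4 mice (log2 −0.20, and −0.50 with the replicate block, adjusted p = 0.364), and so was Thbd (log2 −0.25, adjusted p = 0.858). For F13a1 the value without the SR9009 library of mouse 1 was −1.22 (SE 1.17, adjusted p = 0.940). F3 had 2 counts in DMSO and none with SR9009, both under the limit of 3 counts, and F2r had 8 and 2 (ratio 0.282, interval 0.0292 to 1.41).

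SR9009 and LPS was compared with LPS to ask whether the agonist changed the levels reached with LPS. No member was called by edgeR (1.79% of all tested genes were), DESeq2 (5.25%), limma-voom (1.70%) or the replicate block (3.98%). When the SR9009 library of mouse 1 was left out, 11.5% of genes were called and again no member. At an unadjusted p under 0.05 there were 0 higher and 1 lower, Pros1, with 7.79% of all tested genes higher and 5.74% lower. The groups did not overlap for 2 of 7 members, F10 and Pros1 (14.4% of all tested genes), and both were lower in 4 of 4 mice. F10 was at 29.6 ± 4.45 CPM with LPS and 17.8 ± 1.64 with SR9009 and LPS, a log2 difference of −0.74 (SE 0.55, adjusted p = 0.636). Within mice it was −0.97, −0.79, −0.68 and −0.48, a narrow range beside the fitted error. A fit of these 2 groups alone, whose spread does not include the uneven F10 values without LPS, gave −0.73 and adjusted p = 0.0395. That was the 1 setting of 31 that passed, and the replicate block gave −0.70 (SE 0.53, edgeR adjusted p = 0.562). Pros1 was at 29.4 ± 2.71 and 17.6 ± 7.44 CPM (log2 −0.74, SE 0.25, adjusted p = 0.163, and 0.0800 with the replicate block). It passed without mouse 1 (−1.0, adjusted p = 0.0254), whose 2 values were 26.8 and 26.1 CPM, and with the block when the SR9009 library of mouse 1 was left out (−0.76, adjusted p = 0.0278).

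Procr and Thbd took different directions in different mice. With SR9009 and LPS against LPS, Procr was lower in mice 1 and 2 (log2 −0.85 and −0.80) and higher in mice 3 and 4 (1.00 and 1.29), and the fitted value was 0.55 (SE 0.52, adjusted p = 0.740). Thbd did the reverse, with 1.52 and 0.43 in mice 1 and 2 and −1.17 and −1.20 in mice 3 and 4 (fitted −0.46, SE 0.47, adjusted p = 0.764). Pros1 fell further in mice 3 and 4 (−1.37 and −1.35) than in mice 1 and 2 (−0.04 and −0.58). The likeness of mice 3 and 4 was not limited to these genes. Across all tested genes, the deviations of libraries from their group means had a median r of 0.242 between mice 3 and 4, 0.0361 between mice 1 and 2, and −0.322 to −0.147 between mice of unlike pairs. The labels name no batch or litter, and a comparison of mice was not tested. The other members, F7 (log2 −0.10), F13a1 (−0.08) and Tfpi (0.36, higher in 4 of 4 mice with overlapping groups), did not pass (adjusted p 0.747 to 0.989), and for F2r the ratio of counts was 0.656 (interval 0.392 to 1.09). With the SR9009 library of mouse 1 left out of the fit, Tfpi had log2 0.40 (SE 0.14, edgeR adjusted p = 0.0885).

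**Figure D4:**
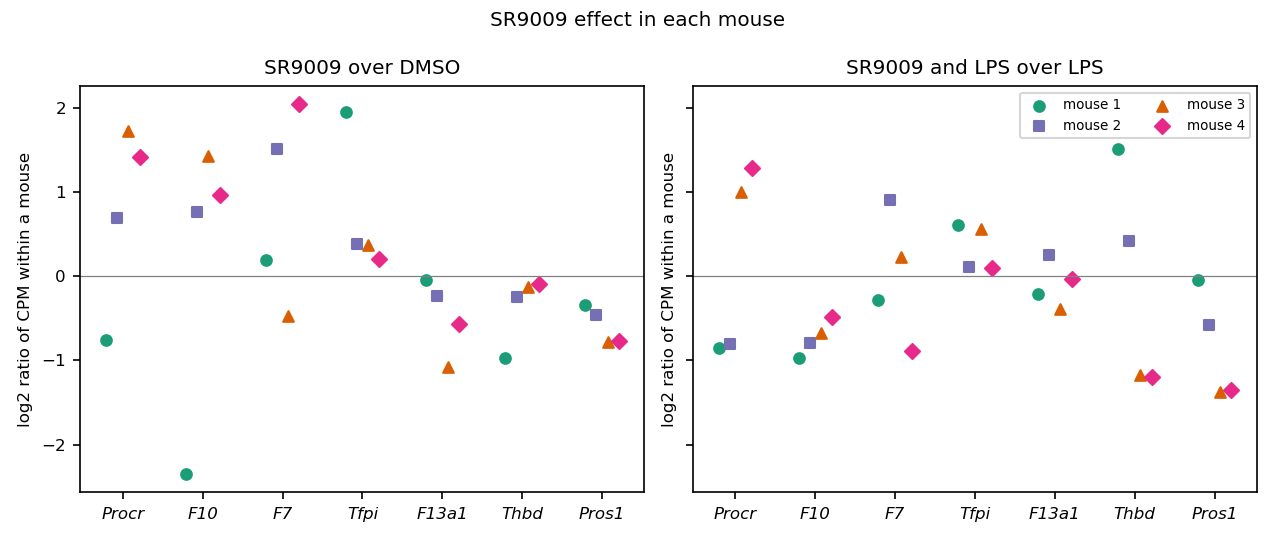
Log2 ratio of CPM within each mouse for the 7 tested genes, SR9009 over DMSO on the left and SR9009 and LPS over LPS on the right. On the right all 4 mice are below 0 for F10 and Pros1, while mice 3 and 4 are above 0 for Procr and below 0 for Thbd, opposite to mice 1 and 2.

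The difference between the SR9009 effects with and without LPS was tested as an interaction. No member passed by edgeR, where 0.00744% of all tested genes did, or by DESeq2 (103 genes), limma-voom (0 genes) or the replicate block (15 genes). At an unadjusted p under 0.05 there were 0 members and 7.14% of all tested genes. The members' values ran from −0.95 for F7 (SE 0.62) to 0.11 for F13a1 (SE 1.52). For F10 the interaction was −0.79 (95% interval −2.35 to 0.76), so the rise with LPS was not shown to differ after SR9009. For Procr it was −0.46 (interval −1.91 to 0.98).

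The genes around these members in the pathway were taken as lists. Most clotting factor genes had few or no counts: of 13 outside the members, 6 (F11, F13b, Fga, Fgb, Fgg and Kng1) were at 0 in all libraries and 3 were tested. Vwf, which encodes the platelet-binding carrier of factor VIII, fell from 23.6 ± 3.55 to 4.70 ± 1.53 CPM with LPS (log2 −2.32, SE 0.50, adjusted p = 0.00157) and by 1.88 after SR9009. Of 9 other anticoagulant genes 3 were tested, and Serpine2 (protease nexin 1, a thrombin inhibitor) rose with LPS after SR9009 (0.179 ± 0.148 to 1.26 ± 0.906 CPM, log2 2.69, adjusted p = 0.00970). Of 6 genes for carboxylation and secretion of clotting factors, all tested, Furin (a proprotein convertase) rose by log2 1.94 and Mcfd2 (a cargo receptor of factors V and VIII) fell by 0.49 with LPS. Both calls were also made after SR9009, as was a fall by 0.79 of Vkorc1l1.

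Phosphatidylserine on the outer membrane is where clotting complexes assemble. Of 8 genes for its exposure or for tissue factor activity, all tested, Xkr8 (a scramblase subunit) rose with LPS from 6.78 ± 0.476 to 108 ± 33.5 CPM (log2 3.99) and Tmem30a (a flippase subunit) by log2 0.87. After SR9009, Xkr8 rose by 3.8 and Tmem30a did not pass. Of the 4 genes for protein S receptors and their other ligand, 3 were tested. Axl rose (log2 1.45) and Gas6 fell (−1.88) with LPS, and both calls were made after SR9009. Of 13 transcription factors known to act on F3 or Thbd, 12 were tested, and 6 rose with LPS: Nfkb1 (log2 1.71), Klf6 (2.03), Junb (2.52), Fos (0.78), Jun (1.2) and Fosl2 (1.28). Over all tested genes 19.4% were called higher. Rel (1.16), Rela (0.74) and Egr1 (1.92) were higher without passing, and Klf2 (−0.32), Klf4 (−0.83) and Sp1 (−0.08) lower without passing. After SR9009, 5 rose with LPS, Nfkb1, Rel, Junb, Klf6 and Fos, beside 14.5% of all tested genes. Median log2 fold changes with LPS for these 6 lists in order were −0.60, 0.56, −0.16, 0.14, −0.83 and 1.18, beside −0.08 over all tested genes. No gene of these lists was called for SR9009 versus DMSO, for SR9009 and LPS versus LPS or for the interaction.

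The genes most like each tested member were found by Pearson r of log2(CPM + 1) over the 16 libraries, in a search of 9395 genes that code for proteins and average 5 CPM or more. All r share the same libraries and groups, so they describe these data only. F10 was most like Mmp14 (r = 0.990), Saa3 (0.974) and Pip5k1a (0.972), and Procr was most like Ak4 (0.986), Tma16 (0.979) and Higd1a (0.975). F13a1, with its ordering by mouse, was most like Plbd1 (0.979), Ugt1a7c (0.964) and Pfdn5 (0.946). Tfpi was most like Mrps33 (0.975), Chchd3 (0.973) and Ubr3 (0.971), each of which was highest in the SR9009 library of mouse 1 as well (37.4 CPM for Mrps33, 117 for Chchd3 and 205 for Ubr3, against at most 15.0, 39.8 and 90.3 in the other libraries). Pros1 was most like Serpinb8 (0.911), Tubgcp3 (0.894) and Tgfbi (0.878), Thbd like Gle1 (0.932), Map2k3 (0.898) and Noa1 (0.895), and F7 less closely like Tnfsf4 (0.850), Spint2 (0.821) and Ccl22 (0.814).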

How the data were processed

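Poly(A) RNA was captured, per the labels' protocols. HISAT2 and the build GRCm39 (mm39) come from the submitters' processing notes, and which version, counting tool, strand setting and annotation were used is not given in the sources used here. Raw counts per gene of all 16 libraries and FPKM values per library were deposited by the authors, per the file headers. Within a library, the deposited FPKM were proportional to count over gene length.

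The tests used edgeR 4.0.16 in R 4.3.3 (robust quasi-likelihood, 4 group means, TMM, filterByExpr with a minimum count of 10 and minimum total of 15), leaving 13438 of 56748 genes, 7 of the 9 members among them. A gene with few counts can pass this filter through the groups in which it is high, which favours a call in that direction. F7, Pecam1, Cdh5, Ccr7 and Serpine2 passed mainly through libraries with LPS, and Gp1ba through libraries without it. Fits ran on the whole table, with Benjamini-Hochberg adjustment over all tested genes and a threshold of 0.05. SE was taken from each F statistic (size of the log2 fold change over √F). Alternatives were scaling by RLE or upper quartile, no filter, a stricter filter (1 CPM in 4 libraries), DESeq2 1.42.0, limma-voom (limma 3.58.1), limma on log2(FPKM + 1) or log2(FPKM + 0.1), mouse as a replicate block, the compared groups alone, and each mouse or library left out. Other tables used Python 3.11.15, numpy 2.4.6, pandas 2.3.3, matplotlib 3.10.9 and scipy 1.17.1, and the fit was tested on simulated data.

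The mouse number names the same animal in each group, so it pairs the libraries. Deviations from the group means correlated positively for all 24 pairs of libraries of 1 mouse (r 0.0511 to 0.645, median 0.298), against a median of −0.0859 for 72 pairs of different mice. The main fit does not use this pairing, so its p-values measure the spread of the libraries of 4 mice within groups, shared over the 4 groups. All members are named, with up to 4 called genes of each list by smallest p and the 3 genes most like each tested member; Jun and Fosl2 were named beyond this rule, after their values were seen. The members and lists were chosen with earlier results of these data known. Not every marker gene of the lists is reported here.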

Additional observations from a re-analysis of the deposited data

Results flagged for a closer look

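Among 35 sets of 4 libraries (9 genes in 4 groups, leaving out F3 with SR9009, where all libraries were at 0), 2 held a library far from the other 3; chance gives about 1 in 20 such sets. Tfpi was at 57.4 CPM in the SR9009 library of mouse 1, and the gap to the next library was 0.934 of the range of the group. That library also had the lowest total count and the fewest genes with a count, and without it the log2 difference of Tfpi between SR9009 and DMSO was 0.24 in place of 0.97. F10 was at 15.3 CPM in the SR9009 and LPS library of mouse 2, with a gap of 0.853 of the range; the other 3 libraries lay between 18.3 and 18.8 CPM, so the distance in CPM was small.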

How the results depend on the processing

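Of 1071 log2 fold changes recomputed under 31 alternatives, 1001 kept their direction and their side of the threshold, and none of those that turned sign was called in either fit. The stricter filter left out F7, and a fit of the compared groups alone has no interaction. The members called in LPS versus DMSO numbered 4, and 2 to 4 when a mouse or library was left out, with 2 without mouse 4. In SR9009 and LPS versus LPS the count of 0 became 1 with the compared groups alone, 1 with the replicate block and no SR9009 library of mouse 1, and 0 to 1 when a mouse or library was left out. With the replicate block (pairing by mouse), F13a1 gained a call in LPS versus DMSO, and no other member's call changed. The Thbd interaction turned from −0.21 to 0.14 with limma-voom, 0.07 with log2(FPKM + 1), 0.21 with log2(FPKM + 0.1) and 0.17 with the replicate block. The Tfpi interaction turned from −0.61 to 0.10 with the block and no SR9009 library of mouse 1. When mice or libraries were left out, these uncalled values crossed 0: F13a1, from −1.71 to 0.25 in LPS versus DMSO, −1.22 to 0.57 in SR9009 versus DMSO, −1.05 to 1.10 in SR9009 and LPS versus LPS, −1.37 to 0.66 in SR9009 and LPS versus SR9009 and −0.84 to 1.30 for the interaction; F10 in SR9009 versus DMSO, −0.68 to 0.91; F7 in SR9009 and LPS versus LPS, −0.37 to 0.25; and the interactions of Pros1 (−0.41 to 0.02), Tfpi (−0.82 to 0.16) and Thbd (−0.61 to 0.23). The cause was not tested. F3, F2r and F7 rest on at most 22 counts per library.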
